A study of Mus musculus with 43 samples.

Results

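NF-κB is a family of transcription factors that waits in the cytoplasm, bound to inhibitor proteins of the IκB family. When a receptor for a cytokine or a microbial product is engaged, the IκB kinase (IKK) complex phosphorylates the inhibitor, the inhibitor is degraded, and the freed dimers enter the nucleus. In the canonical arm the dimer is mostly RelA with p50, and in the alternative arm it is mostly RelB with p52. In brain, the pathway is best known for inflammatory signalling in microglia, and neurons express RelA and p50 too.

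The data cover 10 genes of this pathway among the 35825 genes tabulated, chosen by name with earlier results of these data known. They are the 5 subunits (*Rela*, *Relb*, *Rel*, *Nfkb1* and *Nfkb2*), the inhibitors *Nfkbia* and *Nfkbib*, and the IKK complex (the catalytic kinases *Ikbkb* and *Chuk* and the scaffold *Ikbkg*). A gene counted as expressed in these cells when its CPM (the estimated count scaled to a cell total of 1000000) was above 15 in at least 5 cells and averaged above 4, which 10802 genes met. All of the 10 except *Nfkb2* met it.

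The cells were neurons of the lateral nucleus accumbens that project to the ventral tegmental area (NAcLat→VTA), filled with retrograde beads and taken up through the patch pipette after recording. They came from C57BL/6J mice of both sexes, given in the methods as 6 to 8 weeks old, on regular chow (REG, 23 cells, labelled NORM) or on a high-fat diet (HFD, 20 cells), in which chow with 60% fat was offered beside standard chow for at least 4 weeks. Each library is 1 cell, and the labels place 13 REG and 5 HFD cells in batch 1 and 10 REG and 15 HFD cells in batch 2. The labels do not tie cells to the 10 REG and 11 HFD mice, so each diet was treated as 1 sample and no difference between diets was tested. Cells are numbered within their diet in accession order.

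Total estimated counts per cell ran from 176961 to 16919555, with medians of 1427698 in REG cells and 1416982 in HFD cells. The 3 D1 medium spiny neuron markers (*Drd1*, *Tac1* and *Pdyn*) were detected in every cell of both diets. The mean detection of the 3 GABAergic markers was 92.8% (REG) and 96.7% (HFD), and that of the 3 D2 markers was 40.6% and 48.3%. *Drd2* had counts in 2 REG and 7 HFD cells, *Adora2a* in 5 and 8, and *Penk* in 21 and 14. Their mean CPM was higher in HFD cells, with log2 ratios of 3.86, 1.40 and 0.99. Only *Penk* met the expression filter, and its ratio was −2.73 in batch 1 and 2.14 in batch 2. The source of the D2 marker RNA was not tested. RNA of other cell types was also present. All 7 microglial markers had counts in both diets, and their summed level ran from 0.34 to 1326 CPM in REG cells (median 50.8) and from 2.61 to 1467 CPM in HFD cells (median 52.3). At least 4 of the 7 exceeded 15 CPM in 2 REG cells and 4 HFD cells, and values without these 6 cells are given beside the results that they change. Below, cells with microglial markers means these 6. Cells with fewer of the markers above 15 CPM, such as HFD cells 5 and 9 with 3 each, were kept in those values. Although the medians were close, all 7 markers had a higher mean in HFD cells, with log2 ratios from 0.21 for *C1qb* to 3.26 for *Cx3cr1* and a median of 0.86 over the 5 that met the expression filter. The means of *Rel*, *Nfkb1*, *Nfkb2*, *Nfkbia* and *Nfkbib* were also higher in HFD cells. Whether microglial RNA had a part in them was not tested.

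Several genes of the pathway are themselves known targets of NF-κB, and the DNA word that the factor binds, the κB consensus, can be read near their starts. It was searched on both strands of the RefSeq promoter windows (GRCm38.p6, 250 bases before to 50 after each start). The windows of *Relb*, *Nfkb1* and *Ikbkb* were not used here. Matches lay in the windows of *Rel*, *Nfkbia* and *Nfkb2*, 3 of the 7 genes searched, against 1388 of all 27025 genes (5.14%). The 7 genes had 12 windows between them, so some had more than 1 window in which to match. The examples below, each with its 10 flanking bases on either side along the strand of the gene, are shown because these are the members whose windows held one. The capitals mark the match, which for *Nfkbia* was found on the strand opposite to the gene, so its printed letters are the complement read backwards.
*Rel*, 92 bases before the start, chr11:23771042-23771071, minus strand: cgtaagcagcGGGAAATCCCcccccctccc
*Nfkbia*, 29 bases before the start, chr12:55492657-55492686, minus strand: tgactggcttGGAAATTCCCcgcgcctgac
*Nfkb2*, 39 bases before the start, chr19:46304688-46304717, plus strand: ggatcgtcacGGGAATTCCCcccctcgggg
*Nfkb2*, 11 bases before the start, chr19:46304716-46304745, plus strand: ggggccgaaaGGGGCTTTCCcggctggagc
The matches in *Rel* and at 39 bases in *Nfkb2* each overlap a match on the opposite strand shifted by 1 base. Windows of *Nfkb2* also held matches 236 bases before and 10 bases after a start, which are not printed. A match is a description of letters in the window, and these data hold no measurement of binding.

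Per unit length and by the mean over both diets, the inhibitor genes and *Chuk* led the 10 genes. On the TPM scale, which divides counts by transcript length before scaling each cell to the same total, the mean levels over the 43 cells were 122 for *Nfkbia*, 45.0 for *Nfkbib*, 43.4 for *Chuk* and 35.2 for *Rela*. Means of 14.8 for *Ikbkb*, 13.6 for *Ikbkg*, 9.61 for *Relb*, 7.48 for *Nfkb1*, 4.98 for *Nfkb2* and 3.37 for *Rel* followed. Median levels were much lower (32.0 TPM for *Nfkbia*, 23.4 for *Chuk*, 16.7 for *Rela* and 9.01 for *Nfkbib*), so the order by median was not the order by mean. Among REG cells alone, mean *Nfkbib* (32.7 TPM) was below *Rela* (52.4) and *Chuk* (51.5). The cells overlapped so widely that no neighbours in this order were apart in range.

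**Figure D1:**
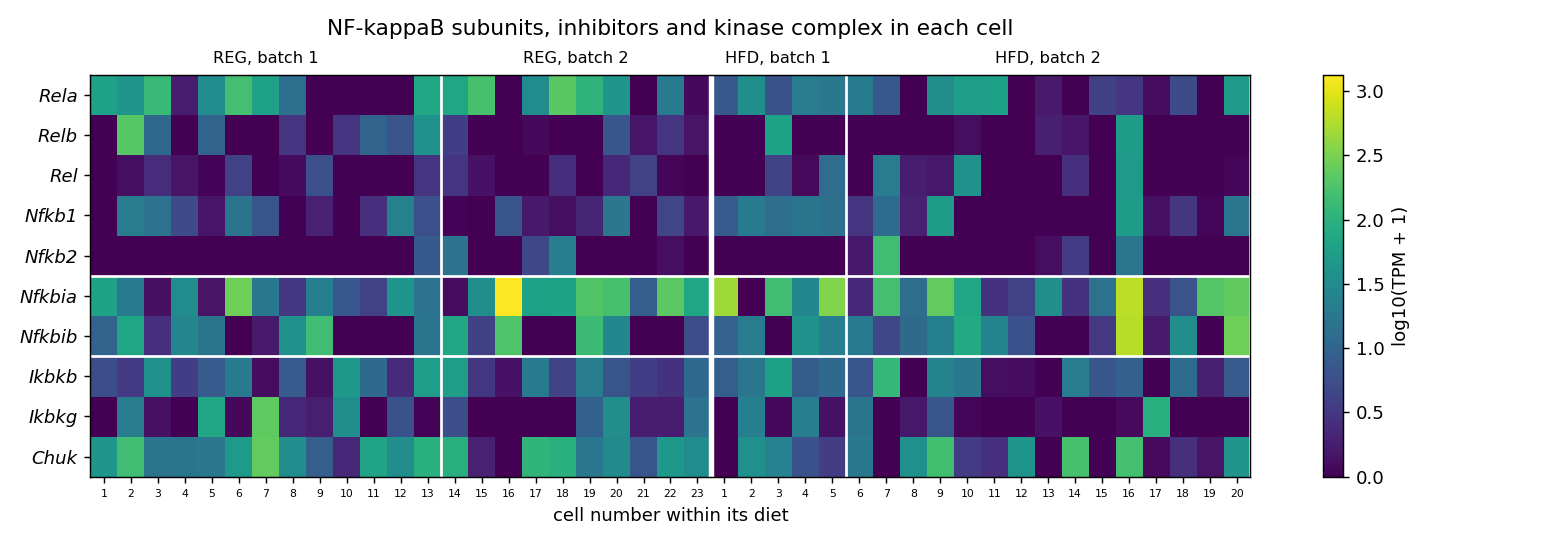
Levels of the 10 genes (rows, white lines between subunits, inhibitors and the IKK complex) in each of the 43 cells (columns, by diet and batch), coloured by log10(TPM + 1). *Nfkbia* had counts in 42 of 43 cells and *Nfkb2* in 10, and HFD cell 16 was high in *Nfkbia* and *Nfkbib* as well as in *Rel*, *Relb* and *Nfkb1*.

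A cell held counts for a median of 7 of the 10 genes in REG (range 4 to 10) and 6 in HFD (range 4 to 10). After every cell was thinned to 150000 counts the median was 5 in both diets. Among the subunits, *Rela* led by TPM in 14 REG and 9 HFD cells, and *Nfkb1* led in 4 REG and 5 HFD cells. Both partners of the canonical dimer, *Rela* and *Nfkb1*, were detected together in 14 REG cells (60.9%, exact 95% interval 38.5 to 80.3) and 12 HFD cells (60%, 36.1 to 80.9). After thinning, *Rela* and *Nfkb1* were found together in 7 REG cells (30.4%) and 10 HFD cells (50%). The partners of the alternative arm, *Relb* and *Nfkb2*, were detected together in 4 REG cells and 3 HFD cells, and after thinning in 1 cell of each diet. These binomial intervals, and the Poisson intervals below, cover counting error only and not the spread between cells or mice.

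Between diets, the mean level of 3 of the 10 genes was more than 2-fold lower in HFD cells (*Rela*, *Relb* and *Chuk*) and that of another 3 was more than 2-fold higher (*Rel*, *Nfkb1* and *Nfkb2*). Over the 10802 expressed genes, 14.3% were more than 2-fold lower and 9.04% more than 2-fold higher by the same measure, the log2 ratio of mean CPM in HFD cells over REG cells. The median ratio of the 10 genes was −0.06, against −0.13 over the expressed genes. Over the 9 that met the expression filter it was −0.36, and *Nfkb2*, outside the filter, is 1 of the 3 counted as higher. The median over the 10 was positive on the TPM scale (0.21) and with TMM scaling (0.04), so the direction of the family median turned with the scale. TMM scaling also moved the median of all expressed genes up, by 0.14, so its change of sign is not particular to the family. The TPM scale moved that median by −0.009. *Rela* was the only 1 of the 10 that stayed more than 2-fold lower with any 1 cell left out (7.02% of expressed genes did), and *Rel* the only 1 that stayed more than 2-fold higher (2.47%). The same 2 genes were the only ones past 2-fold over all cells and in each batch, in a direction met by 5.53% of expressed genes for lower and 2.93% for higher. The ratio had opposite signs in the 2 batches for 6 of the 10 genes, *Nfkb2* included, against 50.8% of expressed genes. In batch 1, 5 of the 10 were more than 2-fold lower, counting *Nfkb2* without HFD counts (23.9% of expressed genes), and 2 more than 2-fold higher (18.3%). In batch 2 the counts were 1 lower (21.1%) and 4 higher (13.5%).

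**Figure D2:**
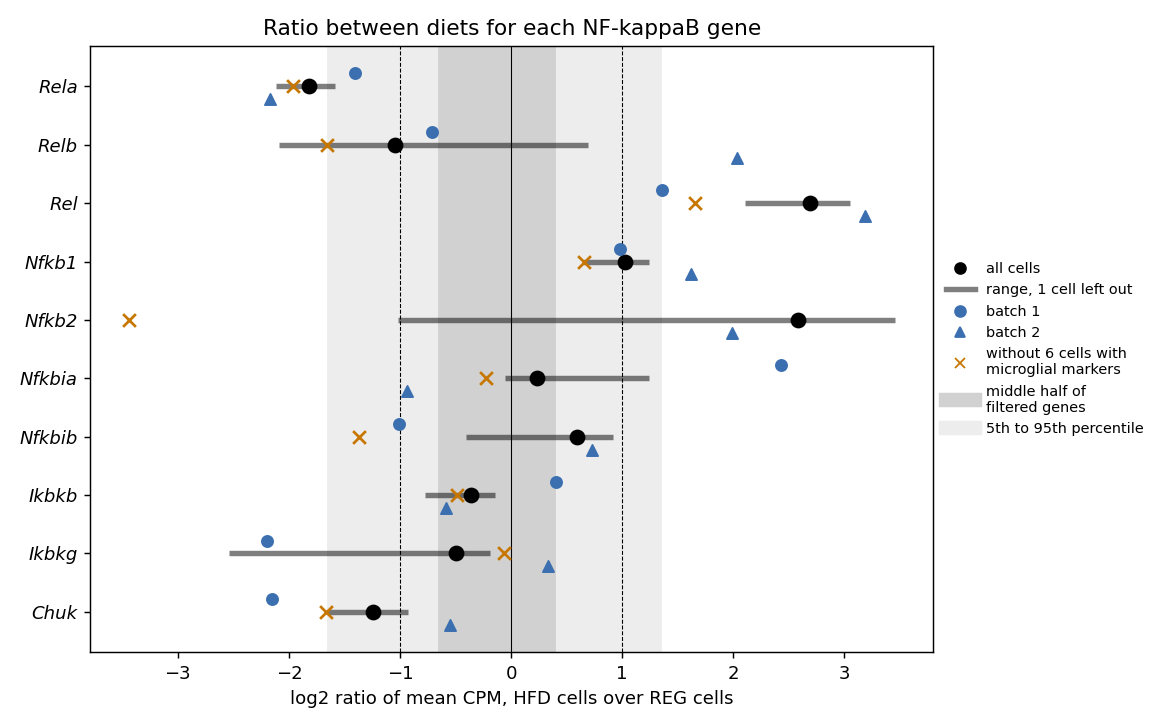
Log2 ratio of mean CPM in HFD cells over REG cells (x axis) for each of the 10 genes (y axis), over all cells, with each 1 cell left out, within each batch, and without the 6 cells with microglial markers. The grey bands hold the 25th to 75th and the 5th to 95th percentiles of the expressed genes, and the dashed lines mark a 2-fold difference. *Rela* lay at −1.82 and *Rel* at 2.69 over all cells, and *Nfkb2* has no batch 1 point because the HFD cells there had no counts.

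*Rela* encodes RelA (p65), the subunit that carries the transactivation domain of the canonical dimer. The gene lies at chr19:5637483-5648130 on the plus strand of GRCm38, and none of its 3156 transcript words of 31 bases is shared with another gene. In REG cells it ran from 0 to 405 CPM with a median of 57.8, and in HFD cells from 0 to 124 CPM with a median of 10.02. The ranges overlapped from 0 upward, and the upper part of the range was thinly filled in HFD cells. It exceeded 50 CPM in 13 REG and 5 HFD cells, and 100 CPM in 8 REG cells and 1 HFD cell.

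REG cells averaged 96.3 CPM of *Rela* and HFD cells 27.3 CPM, a log2 ratio of −1.82 (3.52-fold lower). Leaving out any 1 cell kept the ratio between −2.11 and −1.59. In batch 1 the means were 77.6 and 29.3 CPM (log2 ratio −1.41), and in batch 2 they were 121 and 26.7 CPM (log2 ratio −2.17). The 5 HFD cells of batch 1 measured 68.5, 34.5, 23.7, 11.2 and 8.42 CPM, so that each held counts, whereas 4 of the 13 REG cells of that batch held none. Without the 6 cells with microglial markers the log2 ratio was −1.96.

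The share of cells with any *Rela* count did not run the same way as the mean. It was 73.9% in REG cells (17 of 23, exact 95% interval 51.6 to 89.8) and 80.0% in HFD cells (16 of 20, 56.3 to 94.3), and after thinning 15 cells of each diet held a count. Above 15 CPM, the count was 15 REG cells and 9 HFD cells. Summed over cells, 5109 estimated counts came from REG cells (exact 95% Poisson interval 4970 to 5251) and 1292 from HFD cells (1223 to 1364). REG cell 14, the deepest of all, gave 1853 of the REG counts. The summed depth of the diets differed, and scaled to it the log2 ratio was −1.56. The gap between diets lay in how high *Rela* ran in the cells that held it more than in how many cells held it. By mean TPM, *Rela* stood at rank 2 of the 10 genes among REG cells (52.4) and at rank 5 among HFD cells (15.6).

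**Figure D3:**
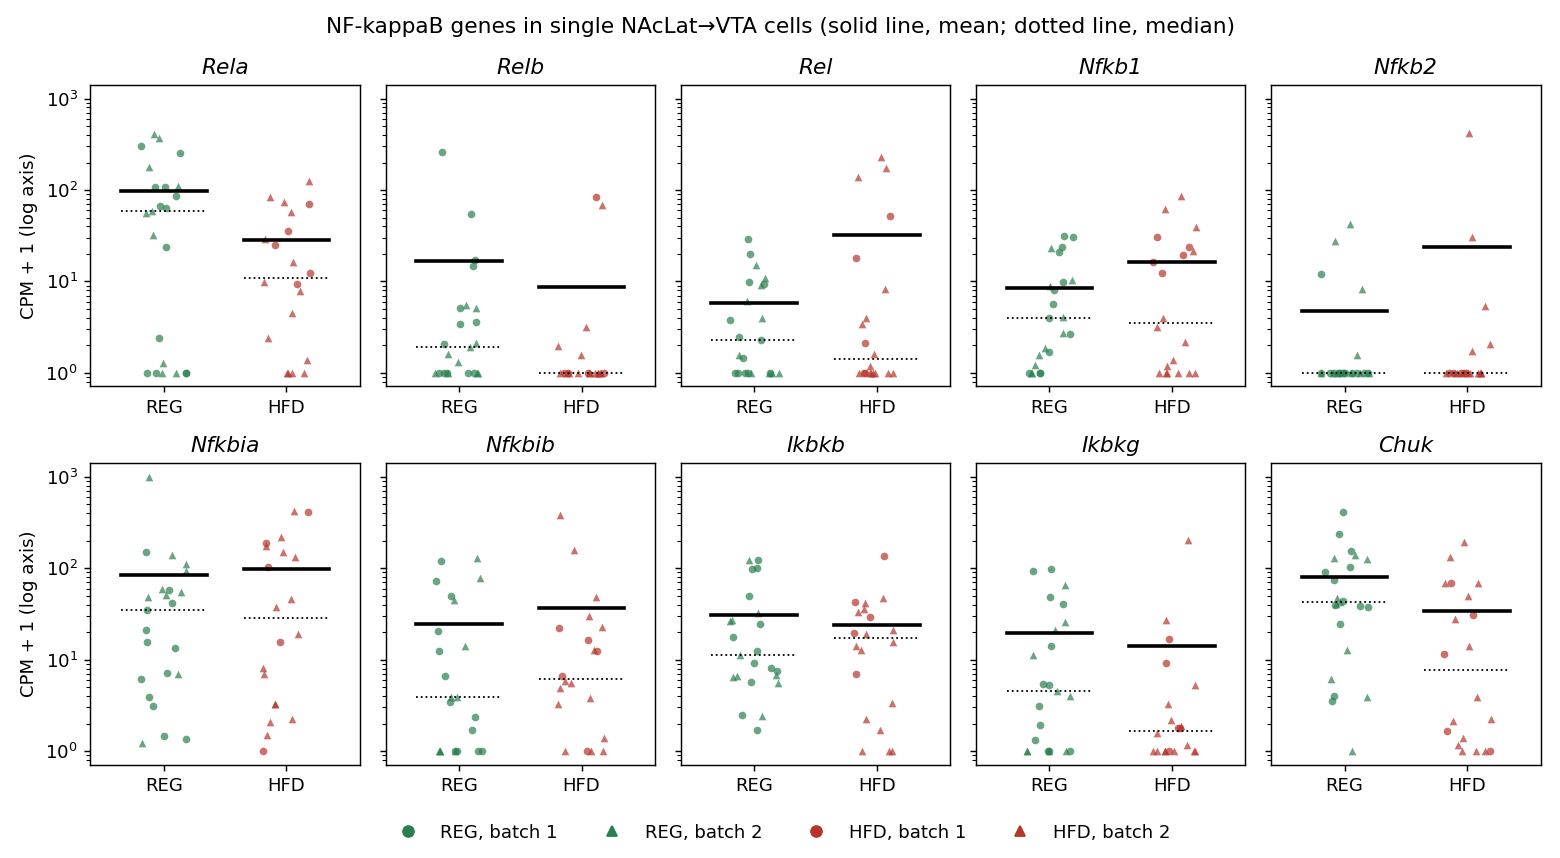
CPM + 1 on a log axis for the 10 genes in each REG and HFD cell (points, circles for batch 1 and triangles for batch 2), with the mean (solid line) and the median (dotted line) of each diet. Both lines of *Rela* and *Chuk* were lower in HFD cells, whereas for *Rel* the mean was higher in HFD cells (31.1 against 4.83 CPM) and the median was lower (0.40 against 1.28 CPM).

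*Rel* encodes c-Rel, a transactivating subunit best known from lymphocytes and myeloid cells. The gene lies at chr11:23736847-23770970 on the minus strand. REG cells ran from 0 to 28.5 CPM with a median of 1.28, and HFD cells from 0 to 227 CPM with a median of 0.40. Most cells of either diet were at or near 0, and only HFD cells exceeded 50 CPM. There were 4 of these, cell 16 at 227 CPM, cell 10 at 173 CPM, cell 7 at 139 CPM and cell 5 at 51.6 CPM, and together they held 94.96% of the CPM summed over HFD cells.

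REG cells averaged 4.83 CPM of *Rel* and HFD cells 31.1 CPM, a log2 ratio of 2.69 (6.44-fold higher) that lay between 2.11 and 3.05 whichever cell was removed. Within batches it was 1.36 (batch 1) and 3.18 (batch 2). The batch 1 value rested on HFD cell 5, without which it was −0.27. Cells 7 and 16 were among the 4 HFD cells with microglial markers, and those 4 cells held 59.2% of the *Rel* CPM of HFD cells. Without all 6 cells with microglial markers the log2 ratio was 1.65, from means of 5.05 CPM (REG) and 15.9 CPM (HFD). Of the 16 HFD cells left, cell 10 at 173 CPM was far above the next, cell 5 at 51.6 CPM. Most of the remaining HFD mean thus came from cell 10, which had no microglial marker above 15 CPM. Cell 5 had 3 of the 7 markers above that level, under the limit of 4. The part of microglial RNA in what remained was not tested. When each cell was taken as log2(CPM + 1) before averaging, the difference was 0.47.

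**Figure D4:**
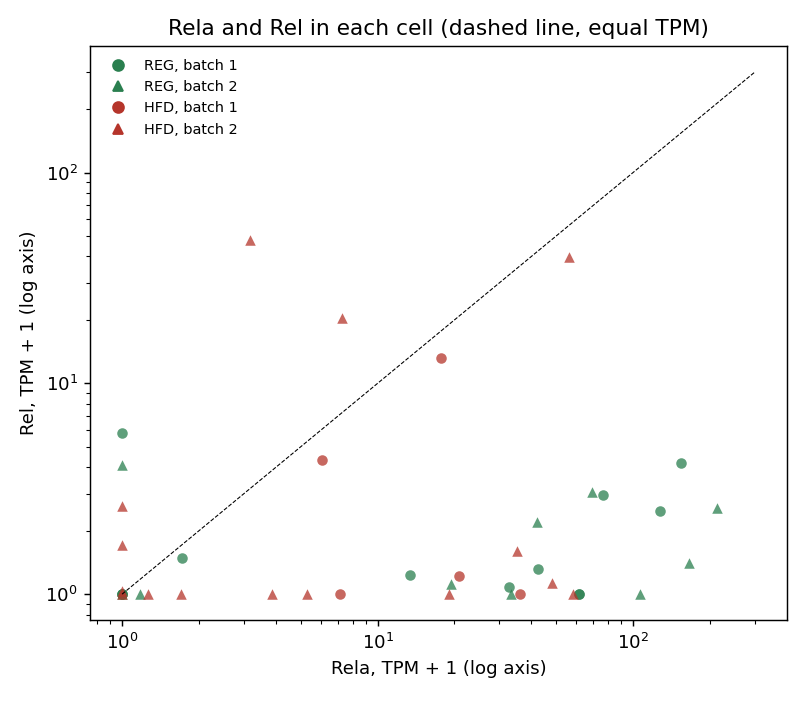
TPM + 1 of *Rela* (x axis) and *Rel* (y axis), both on log axes, with 1 point per cell and a dashed line at equal TPM. Cells with high *Rela* and little *Rel* were mostly REG cells, and *Rel* was at or above *Rela*, with 1 of them above 0, in 2 REG and 5 HFD cells.

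*Nfkb1* encodes p105, which is processed to p50, the DNA-binding partner of RelA. It was detected in 18 REG cells, up to 30.1 CPM with a median of 3.01, and in 14 HFD cells, up to 84.3 CPM with a median of 2.55. The medians were close, and the 3 highest cells were HFD cells 16, 9 and 7. Cells 16 and 7 were among the 6 cells with microglial markers, and cell 9 had 3 of the markers above 15 CPM. The means were 7.56 and 15.4 CPM, a log2 ratio of 1.03 that fell inside 2-fold without HFD cell 16 (0.64). Batch 1 gave 0.98 and batch 2 gave 1.62, and the value was 0.66 without the cells with microglial markers, which held 52.5% of the *Nfkb1* CPM of HFD cells.

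*Relb* encodes the transactivating subunit of the alternative arm. It was detected in 14 REG cells and 5 HFD cells, and in 6 and 2 after thinning. REG cell 2 at 261 CPM held 71.2% of the CPM of its diet, and HFD cells 3 and 16 at 83.4 and 67.3 CPM stood apart from the rest of theirs. The means were 15.9 and 7.72 CPM, a log2 ratio of −1.04 that became 0.69 without REG cell 2. The log2 ratio was −0.71 in batch 1 and 2.03 in batch 2, and each value rested on 1 cell, being 1.09 in batch 1 without REG cell 2 and −2.14 in batch 2 without HFD cell 16. Without the cells with microglial markers it was −1.65 over both batches.

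*Nfkb2* encodes p100, which is processed to p52 and which also holds back RelB as long as it is unprocessed. It was detected in 5 cells of each diet. HFD cell 7, at 418 CPM, held 92.2% of the CPM of its diet, and that cell carried 5 of the 7 microglial markers above 15 CPM. The means of 3.79 and 22.7 CPM gave a log2 ratio of 2.58, which was −1.02 without HFD cell 7 and −3.44 without the cells with microglial markers. In batch 1 the HFD cells had no counts, against 41 in REG cells, which with a floor of 3 counts over the group is a log2 ratio of −2.46 or lower. Of its transcript words, 16.3% are shared with other genes, chiefly *AC114539.1* and *Psd* on the opposite strand, and these libraries do not mark strand.

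The inhibitor *Nfkbia* (IκBα), which is resynthesised when NF-κB is active and ends the response, was the most widely detected of the 10. REG cells ran from 0.24 to 999 CPM (median 33.6) and HFD cells from 0 to 426 CPM (median 27.5). The diets overlapped through almost all of this range. Levels above 100 CPM were seen in 4 REG cells and 8 HFD cells. The means were 82.7 and 97.0 CPM, a log2 ratio of 0.23, and REG cell 16 alone held 52.5% of the REG signal, without which the ratio was 1.24. The batches went opposite ways, with means of 26.6 CPM (REG) and 144 CPM (HFD) in batch 1 (log2 ratio 2.43) and of 156 and 81.4 CPM in batch 2 (−0.93). Without REG cell 16, the batch 2 value was 0.39. The 4 HFD cells with microglial markers held 40.7% of the HFD signal, and without all 6 such cells the log2 ratio over both batches was −0.23.

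*Nfkbib* (IκBβ), an inhibitor that is degraded more slowly, was detected in 15 REG and 16 HFD cells. Medians were 2.93 and 5.20 CPM and the highest cells were at 129 and 378 CPM. The means were 23.8 and 36.0 CPM, a log2 ratio of 0.60 that became −0.41 without HFD cell 16. It was −1.01 in batch 1 and 0.72 in batch 2, the latter being −0.39 without HFD cell 16. The 4 HFD cells with microglial markers held 78.1% of the HFD signal, and without all 6 such cells the log2 ratio was −1.37. The transcripts of *Nfkbib* overlap *Ccer2* and *Sirt2* on the opposite strand, and 299 of its 2135 words are shared.

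Within the IKK complex, *Chuk* (IKKα), the kinase that the alternative arm depends on, had the ratio farthest from 0 in CPM over all cells. The ratio of *Ikbkg* was farther from 0 in TPM and in batch 1. That of *Ikbkb* was farther in batch 2 (−0.59 against −0.55 for *Chuk*) and from summed counts (−1.89 against −1.29). In REG cells *Chuk* ran from 0 to 416 CPM (median 42.3), and in HFD cells from 0 to 192 CPM (median 6.67). The ranges overlapped, with 7 REG cells and 2 HFD cells above 100 CPM. Counts were found in 22 of 23 REG cells (95.7%, exact 95% interval 78.1 to 99.9) and 16 of 20 HFD cells (80.0%, 56.3 to 94.3), and after thinning in 21 and 11. The means were 78.3 and 33.2 CPM, a log2 ratio of −1.24 that stayed negative, between −1.66 and −0.93, with any 1 cell left out. It was −2.15 in batch 1, −0.55 in batch 2 and −1.67 without the cells with microglial markers. On the TPM scale the log2 ratio was −0.60, inside 2-fold.

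*Ikbkb* (IKKβ), the kinase of the canonical arm, was detected in all 23 REG cells and in 17 HFD cells, with medians of 10.4 and 16.4 CPM. The means were 29.8 and 23.3 CPM, a log2 ratio of −0.36 in CPM and of 0.23 in TPM, so its direction turned with the scale. It was 0.41 in batch 1 (−0.54 without HFD cell 3) and −0.59 in batch 2 (0.29 without REG cell 14). *Chuk* had the higher TPM of the 2 kinases in 18 of 23 REG cells (78.3%, exact 95% interval 56.3 to 92.5) and 10 of 20 HFD cells (50%, 27.2 to 72.8), whereas *Ikbkb* had it in 5 and 9.

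*Ikbkg* (NEMO), the regulatory subunit that binds ubiquitin chains and couples the kinases to receptors, was detected in 16 REG and 12 HFD cells, with medians of 3.54 and 0.67 CPM. HFD cell 17 at 204 CPM held 77.0% of the HFD signal. The means were 18.6 and 13.2 CPM, a log2 ratio of −0.49, which was −2.54 without HFD cell 17. It was −2.19 in batch 1 and 0.33 in batch 2, the latter being −2.33 without HFD cell 17. The ratio was −1.20 in TPM and −0.06 without the cells with microglial markers. All 3 genes of the complex were detected together in 16 REG cells (69.6%, exact 95% interval 47.1 to 86.8) and 9 HFD cells (45.0%, 23.1 to 68.5), and after thinning in 8 and 3. The transcripts of *Ikbkg* overlap *G6pdx* on the opposite strand, and 5.81% of its words are shared.

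Around these 10 genes, 79 further genes of the pathway were listed by role, from ligands and receptors through adaptors and kinases to target genes. Of these, 76 had counts and 44 met the expression filter, and of the 44, 6 were more than 2-fold lower in HFD cells, 5 more than 2-fold higher and 33 within 2-fold. With 14.3% of all expressed genes lower and 9.04% higher by that measure, these counts were near the background. The median log2 ratio was −0.29, against −0.13 over all expressed genes. In each group the 3 genes with the highest mean TPM are described, and the other genes were named after their values were seen.

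Ligands and receptors were sparse in the aspirates. Of 8 ligands, 6 had counts and 3 passed the filter. *Il1a* and *Il1b*, which encode interleukin-1 alpha and beta, had log2 ratios of −0.07 and −1.77, and *Tnf*, which encodes tumour necrosis factor, had 1.21 with a range from 0.72 to 3.6 when 1 cell was left out. *Il1b* was detected in 8 REG and 6 HFD cells and *Tnf* in 5 and 8, so both means came from few cells. Without the cells with microglial markers the log2 ratio was −2.87 for *Il1a*, 0.06 for *Tnf* and −1.75 for *Il1b*. With 1 cell left out, *Il1a* ranged from −0.94 to 2.93 and *Il1b* from −3.32 to −0.95. *Il1b* was at −0.16 in batch 1 and −3.28 in batch 2. Of 11 receptors, 3 passed. *Il1r1*, the receptor of interleukin-1, and *Tnfrsf11a* (RANK) had log2 ratios of −0.82 and −0.41, and *Tlr2*, a sensor of bacterial lipoproteins detected in 5 REG and 3 HFD cells, had 1.20, which was −0.71 with 1 cell left out and −5.76 without the cells with microglial markers.

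Of 19 adaptors and ubiquitin ligases, all 12 that passed the filter lay within 2-fold over all cells, with a median log2 ratio of −0.38. Of all expressed genes, 23.3% were past 2-fold in either direction. Genes of this group outside the filter went both ways. Among them, *Traf2* (3.53), *Birc3* (4.12) and *Ticam1* (6.70) were higher in HFD cells, and *Traf1* (−3.91) and *Fadd* (−2.30) lower. *Ube2n* and *Ube2v1*, which together build the K63-linked ubiquitin chains that recruit the kinases, had log2 ratios of −0.04 and −0.65, and *Rbck1* (HOIL-1), of the linear ubiquitin ligase, had −0.38. Counts of *Ube2n* were missing from only 1 of the 43 cells.

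Of 13 upstream kinases and partners, 9 passed the filter. *Tbk1*, *Irak1* and *Map3k7* (TAK1), the most abundant, had log2 ratios of −0.25, −0.20 and 0.88, and that of *Tbk1* was 0.06 without the cells with microglial markers. Past 2-fold were *Tab1*, a partner of TAK1, at −1.63 (−0.45 with 1 cell left out and −0.14 in batch 2), *Irak2* at 2.28 and *Ripk1*, the kinase of the TNF receptor complex, at 2.88. *Ripk1* had means of 7.52 CPM (REG) and 55.5 CPM (HFD), was detected in 13 cells of each diet, and kept a log2 ratio of at least 2.23 whichever cell was removed.

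The deubiquitinases and brakes, which take down ubiquitin chains or dampen the signal numbered 8, of which 6 passed the filter. Of the 6, 4 were past 2-fold in either direction, as were 23.3% of all expressed genes. *Otulin* (−2.66), *Tnip1* (−1.76) and *Tnip2* (−1.20) had lower means in HFD cells, but *Tnip1* was at −5.93 in batch 1 and 0.38 in batch 2, and *Tnip2* was at −0.92 with 1 cell left out. *Otulin*, which cleaves linear ubiquitin chains, had means of 37.9 and 6.0 CPM, and its log2 ratio ranged from −4.77 to −2.12 when single cells were removed. *Cyld*, which cleaves K63-linked and linear chains, was detected in all 43 cells and had a log2 ratio of 0.60. *Tnfaip3* (A20), a feedback inhibitor detected in 4 REG and 8 HFD cells, had a log2 ratio of 1.07, which was −0.55 with 1 cell left out, −2.05 without the cells with microglial markers, −3.28 in batch 1 and 3.76 in batch 2.

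Of the 4 other IκB proteins, *Nfkbie* (IκBε) and *Nfkbid* (IκBNS) passed the filter, at log2 ratios of −0.62 and 0.34. *Bcl3*, with counts in 3 REG cells and 1 HFD cell, did not pass. Among 16 target genes, 9 passed the filter. *Sod2*, the mitochondrial superoxide dismutase, was detected in all 43 cells and had a log2 ratio of 0.43, *Gadd45b* had −0.46 and the chemokine gene *Cxcl2* had 0.68 (−0.009 without the cells with microglial markers). *Ier3*, an immediate early gene, was the only 1 of these 9 past 2-fold over all cells, at −2.49, with means of 46.1 and 8.21 CPM. Without the cells with microglial markers it was at −2.29, and *Ccl2* and *Icam1* were past 2-fold as well. *Ccl2* was then at −3.29 (−0.26 over all cells) and *Icam1* at −3.26 (−0.54). *Il6* had no counts.

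**Figure D5:**
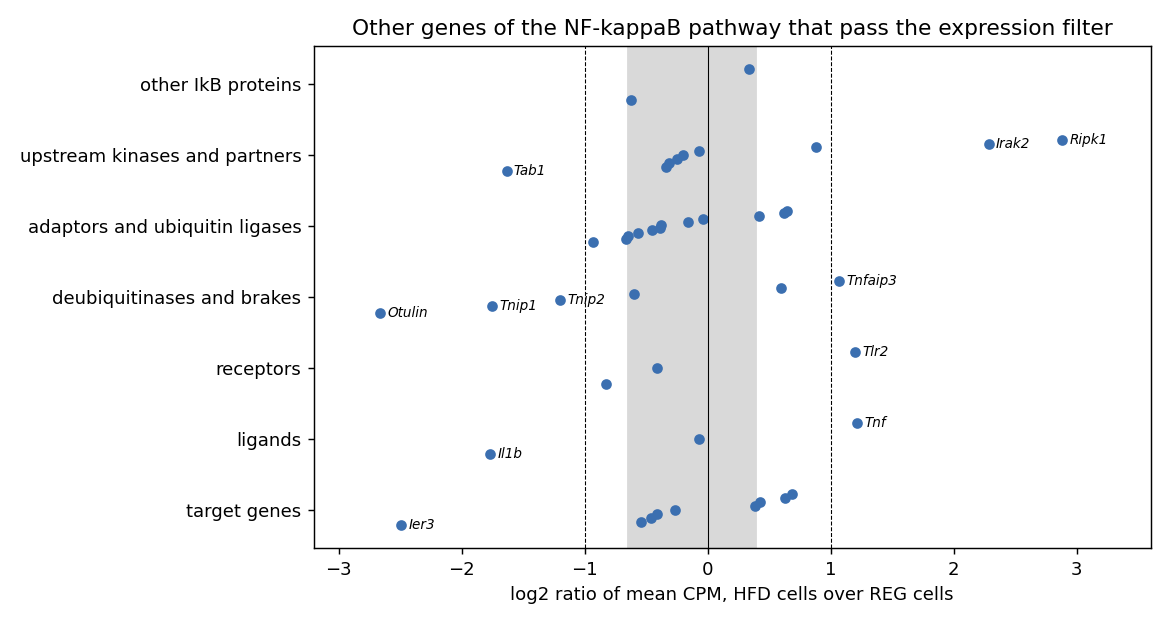
Log2 ratio of mean CPM in HFD cells over REG cells (x axis) for the 44 further pathway genes that met the expression filter, by role (y axis), with names for those past 2-fold. The grey band spans the 25th to 75th percentile of all expressed genes, and 33 of the 44 lay between the dashed lines at a 2-fold difference.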

How the data were processed

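Patch sequencing libraries of 43 mouse NAcLat→VTA cells were prepared from polyadenylated RNA with kits that do not mark strand. The authors pseudo-aligned reads to the mouse transcriptome (GRCm38, per the labels) with kallisto, excluded cells with few reads or genes, and deposited estimated counts without normalization and TPM computed within each cell. Depth is the total estimated count per cell, with a median of 1426795.

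Estimated counts were scaled to a total of 1000000 per cell (CPM), and log2 ratios compare the mean over HFD cells with the mean over REG cells, with no pseudocount added. Detection means a count above 0. Shares carry exact (Clopper-Pearson) 95% intervals and summed counts exact 95% Poisson intervals. Cells were thinned by drawing 150000 of their counts without replacement. The expression filter is that of the authors' methods. As mice are not named, no test was run, and a gene was called past a limit of 2-fold.

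All 10 genes are named, together with the 3 genes of the highest mean TPM in each pathway list. For each member detected in at least 22 cells the gene most like it is named, with those that followed for *Rela*, *Nfkbia* and *Chuk*. The members and lists were chosen with earlier results of these data known. Gene coordinates and transcript words came from GENCODE (GRCm38), and promoter windows from RefSeq (GRCm38.p6). Alternatives were TPM, TMM factors (edgeR 4.0.16), size factors (DESeq2 1.42.0), totals without *Lars2* and *Gm19220*, summed counts, log2(CPM + 1), thinning, each batch, the mean of both batches, other filters and detection limits, and leaving out cells. Scripts were tested on simulated data. Python 3.11.15, pandas 2.3.3 and scipy 1.17.1 were used.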

Additional observations from a re-analysis of the deposited data

How the results depend on the processing

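*Rela* had a negative log2 ratio under all 11 alternatives, from −2.17 to −1.10, and with each of the 43 cells left out (−2.11 to −1.59). Its values were −1.56 from summed counts, −1.10 when cells were averaged as log2(CPM + 1), −1.58 after thinning, −1.41 and −2.17 within batches 1 and 2, and −1.96 without the 6 cells with microglial markers. *Rel*, *Nfkb1* and *Chuk* likewise kept their sign under all 11. The share of HFD cells with *Rela* was 45.0% above 15 CPM and 100% in batch 1. *Relb* had the opposite sign in batch 2 (2.03), as the mean of both batches (0.66) and without REG cell 2 (0.69), over a range of −2.09 to 0.69 with 1 cell left out. *Nfkb2* did so from summed counts (−0.99), without the cells with microglial markers (−3.44) and without HFD cell 7 (−1.02), over a range of −1.02 to 3.45. The cause was not tested.

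The median ratio of the 10 genes was 0.21 in TPM, 0.041 with TMM scaling, −0.14 without *Lars2* and *Gm19220* in the totals, −0.35 from summed counts, −0.13 when averaged as log2(CPM + 1), 0.53 in batch 2, −0.93 without the cells with microglial markers, and −0.43 to 0.43 with 1 cell left out. Over the 9 genes with HFD counts in batch 1, *Nfkb2* left out, it was −0.71 in that batch and −0.092 as the mean of both batches. The number more than 2-fold lower was 5 in batch 1, 1 in batch 2, 5 without those cells and 2 to 3 with 1 cell left out. The number more than 2-fold higher was 0 when averaged as log2(CPM + 1), 1 without those cells and 1 to 4 with 1 cell left out. TMM and DESeq2 scaling moved the median of all expressed genes by 0.14 and 0.15.

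No paired analysis was possible because neither replicate numbers nor mice are given for the cells. Depth limits the low genes most, since 1 count in the shallowest cell weighs far more in CPM than in the deepest. The spread between mice is unknown, and batch 1 holds only 5 HFD cells.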

Other observations

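Over the 45 pairs of the 10 genes, Pearson's r of log2(CPM + 1) over the 43 cells of both diets ran from −0.28 (*Nfkbia* with *Ikbkg*) to 0.50 (*Rel* with *Nfkb2*), with a median of 0.15. *Nfkb1* with *Nfkbia* had an r of 0.42, and *Rela* with its partner *Nfkb1* had 0.17. *Rel* and *Nfkb2* were detected together in 7 cells. Points share depth and diet, and these values are a description with no test.

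Among the 9312 expressed genes detected in at least 22 cells, the gene most like *Rela* over the 43 cells was *Fbxo34* (r of 0.56), followed by *Ctps2* and *Tbxas1*. The gene most like *Rel* was *Piga* (0.67) and the gene most like *Chuk* was *Dync2h1* (0.77), followed by *Usp48* and *Clpx*. *Nfkb1* was most like *Morc2b* (0.66), *Ikbkb* most like *Ppp6r3* (0.69), *Ikbkg* most like *Rbm6* (0.51) and *Nfkbib* most like *Dgkd* (0.55). The gene most like *Nfkbia* was *Tyrobp* (0.55), which encodes an adaptor protein of myeloid cells including microglia, followed by *Gm10801* (0.54) and *Ccl9* (0.52). *Relb* and *Nfkb2* were detected in too few cells for this comparison.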
